A study of Mus musculus with 4 samples.

Results

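RNA from renin cells sorted from the kidney cortex held transcripts known from the thick ascending limb, the distal convoluted and connecting tubule, and the collecting duct. The genes described here are 46 such transcripts of the 32647 gene symbols in the deposited table, chosen by name, and all 46 were found. By the segment they mark, 13 belong to the thick ascending limb, 12 to the distal convoluted and connecting tubule, 11 to principal cells and 6 to intercalated cells, while 4 are shared by most tubular epithelium. Some of them have wider use: Wnk1, Stk39, Krt8 and Krt18 are made by many cell types.

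RNA-seq was performed on 4 libraries of recruited renin cells, 2 biological replicates with 2 technical replicates each. The animals were adult C57BL/6 mice of genotype Ren1c-YFP, a reporter whose yellow fluorescence depends on the renin promoter, and all of them had been given captopril (0.5 g/L in the drinking water), an inhibitor of angiotensin converting enzyme, with a low salt diet for a week. Kidneys were stripped of their medulla, the cortex was digested, and fluorescent cells were collected by FACS, so that all 4 libraries share the transgene, the drug and the diet. Libraries BLK-1 and BLK-2 are the technical replicates of biological replicate 1, and BLK-3 and BLK-4 those of biological replicate 2. The sources used here do not say whether a biological replicate was a single mouse, untreated cells are not analysed here, and a pool of sorted cells measured in bulk cannot tell fewer cells of a type from less RNA per cell.

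These segments follow one another along the distal nephron. The thick ascending limb takes up salt through the cotransporter NKCC2 and makes uromodulin, and at its end it touches the renin cells of its own glomerulus at the macula densa. The distal convoluted tubule takes up salt through the thiazide-sensitive cotransporter, and the connecting tubule, which regulates calcium and often runs close to the afferent arteriole, leads into the collecting duct. There, principal cells move water and sodium under vasopressin and aldosterone, and intercalated cells move acid and base with a proton pump.

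Values are TPM, a transcript abundance scaled for gene length and library total. Technical replicates were averaged first, and a gene's level is the mean of the 2 resulting values with their SD (n = 2). Presence means 1 TPM or more. The libraries held between 19871400 and 47471000 estimated counts, and 6405 to 8709 genes were present in a library. Ren1, the renin gene, stood at 29637, 28674, 21904 and 15933 TPM in BLK-1 to BLK-4, at ranks 4, 5, 8 and 6 among all genes. With a single condition there was no test between groups, and 2 biological replicates allow none between themselves.

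Promoters of 3 members are shown because these genes mark the thick limb and the intercalated cell in the values that follow: Umod (uromodulin), Slc12a1 (NKCC2) and Atp6v1g3 (a proton pump subunit of intercalated cells). Each is the RefSeq window on GRCm38.p6 from 250 bases before to 50 bases after the start, 5′ to 3′ on the gene's strand. Capitals mark GTTAAT, one side of the site bound by HNF1 factors, in Umod and Atp6v1g3, and TGTTTAC, the core bound by forkhead factors, in Slc12a1.
Umod, chr7:119479213-119479512, minus strand: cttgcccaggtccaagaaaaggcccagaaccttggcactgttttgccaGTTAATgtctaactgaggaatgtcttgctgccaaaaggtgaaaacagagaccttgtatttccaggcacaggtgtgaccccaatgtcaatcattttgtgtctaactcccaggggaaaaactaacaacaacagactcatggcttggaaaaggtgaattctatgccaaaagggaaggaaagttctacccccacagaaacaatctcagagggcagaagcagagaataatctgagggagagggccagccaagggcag
Slc12a1, chr2:125152350-125152649, plus strand: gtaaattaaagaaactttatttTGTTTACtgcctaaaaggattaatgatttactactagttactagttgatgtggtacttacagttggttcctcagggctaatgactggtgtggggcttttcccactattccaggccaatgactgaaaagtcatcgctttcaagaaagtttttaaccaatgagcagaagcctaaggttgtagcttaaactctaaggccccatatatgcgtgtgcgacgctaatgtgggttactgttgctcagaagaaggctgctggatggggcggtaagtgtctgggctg
Atp6v1g3, chr1:138273488-138273787, plus strand: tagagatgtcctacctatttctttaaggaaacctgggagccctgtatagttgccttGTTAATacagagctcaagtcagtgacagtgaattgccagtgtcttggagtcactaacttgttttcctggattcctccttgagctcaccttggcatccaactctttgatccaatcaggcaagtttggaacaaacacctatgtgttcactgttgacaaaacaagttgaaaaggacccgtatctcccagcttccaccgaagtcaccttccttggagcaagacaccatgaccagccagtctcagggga

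The letters GTTAAT began 202 bases before the start of Umod and 194 bases before that of Atp6v1g3, and TGTTTAC began 228 bases before that of Slc12a1. Of 46 members, 33 had a window, with 41 windows in all. On either strand, GTTAAT was in 4 of the 41, in Atp6v1g3, Cldn10, Kcnj16 and Umod, against 7.10% of all 32851 windows. TGTTTAC was in 4 of them too, in Atp6v1b1, Avpr2, Egf and Slc12a1, against 3.65% of all windows. TATAAA, the TATA box, was searched as well and was in 8 of the 41, against 13.6% of all. The 3 motifs do not overlap one another in the printed windows, and a match describes the letters alone.

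Most members were detected in at least 1 library, and their median level over both biological replicates lay above that of the genes above 0 TPM. Present in every library were 17 of 46 members, and 39 were present in at least 1 library. Of all 32647 genes, 9.74% were present in every library and 37.7% in at least 1. The median level of the members was 17.4 TPM, against 1.33 TPM for the 19229 genes above 0 TPM in any library, and without BLK-3 it was 9.19 TPM against 0.947 TPM. By library, 21 and 22 members were present in BLK-1 and BLK-2, and 37 and 33 in BLK-3 and BLK-4. Their median TPM was 0.774 and 0.593 in BLK-1 and BLK-2 and 38.2 and 17.6 in BLK-3 and BLK-4. The median level of the members thus rested on biological replicate 2. The share of all TPM held by the 46 together was 0.392% and 0.707% in BLK-1 and BLK-2 and 1.35% and 1.81% in BLK-3 and BLK-4, and Fxyd2 alone made up 42.0% to 76.3% of that sum.

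**Figure D1:**
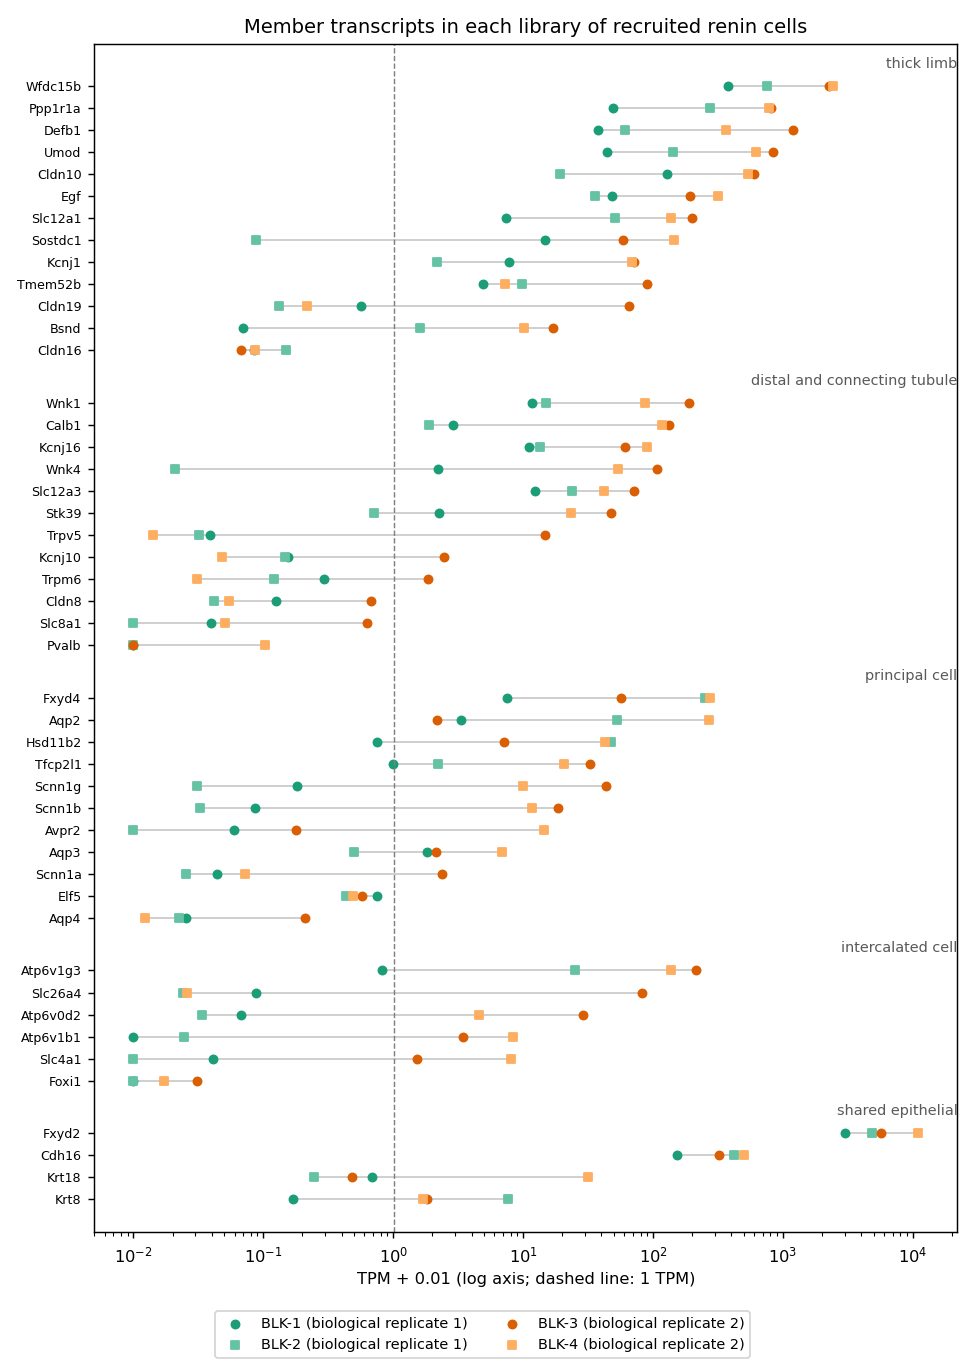
TPM + 0.01 of the 46 members (log axis) in each of the 4 libraries, grouped by segment and ordered by level, with circles for technical replicate 1 and squares for technical replicate 2 and a grey line from the lowest to the highest library. Orange points (biological replicate 2) lie to the right of green points (biological replicate 1) with no overlap for 29 members, and the dashed line at 1 TPM leaves 7 members to its left in every library.

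The members were higher in biological replicate 2 than in biological replicate 1. Both libraries of biological replicate 2 lay above both of biological replicate 1 for 29 of 46 members and below both for 0, against 9.21% above and 24.2% below among the genes above 0 TPM. For 23 members the means of TPM + 1 were also at least 4-fold apart in that direction, against 4.12% of those genes, and for 0 in the other, against 6.9%. Genes of low level can hardly reach 4-fold on TPM + 1. At a level of 10 TPM or more, 17 of 26 members were called higher and 0 lower, against 10.2% and 12.1% of 4364 genes. At that level 19 of the 26 members lay above without overlap, against 17.3%. The median ratio of biological replicate 2 to 1 was 2.54 on the log2(TPM + 1) scale over the members and -0.07 over the genes above 0 TPM. The 23 members were 10 of the thick limb, 5 of the distal convoluted and connecting tubule, 4 of principal cells, 4 of intercalated cells and 0 of the shared epithelial genes. With any single library left out, 23 to 27 members were called higher, against 5.74% to 8.76% of the genes above 0 TPM. Of the original 23 members, 20 stayed without BLK-1 or BLK-4 and all 23 without BLK-2 or BLK-3, and without BLK-4 1 member, Aqp2, was called lower, against 10.7% of those genes.

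Transcripts of the proximal tubule, another epithelium of the cortex, were in the same libraries. Their summed TPM over 22 genes was 1861 and 2252 in biological replicate 1 and 2315 and 16240 in biological replicate 2, with 14 of 22 present in every library and 0 of them at 0 TPM in all. Of the sum in BLK-4, 11140 TPM was Kap, the androgen-regulated kidney protein, which stood at 55.5, 19.8 and 1236 TPM in BLK-1 to BLK-3, and 3 of the 22 genes were called higher in biological replicate 2 and 1 lower. With Kap included, the proximal sum in BLK-3 lay near those of biological replicate 1. The 42 segment members summed to 7512 TPM in BLK-3, against 777 and 1794 TPM in BLK-1 and BLK-2. The ratio of the segment members to the proximal list was 0.418 and 0.797 in biological replicate 1, 3.25 in BLK-3 and 0.409 in BLK-4. Without Kap, left out after seeing the data, the proximal sum was 1805 and 2232 TPM in biological replicate 1 and 1079 and 5100 TPM in BLK-3 and BLK-4. The ratio was then 0.431 and 0.804 in biological replicate 1 and 6.96 and 1.30 in BLK-3 and BLK-4, above both in each. Over 10 renin cell genes the sum was lower in biological replicate 2, at 27729 and 24351 TPM against 49956 and 46847 TPM. Most of that sum was Ren1 and Crip1, the latter at 17235, 15592, 3913 and 6634 TPM in BLK-1 to BLK-4. Of the 10 genes, 0 were called higher in biological replicate 2 and 1 lower. The part of these differences in the members' levels was not tested.

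**Figure D2:**
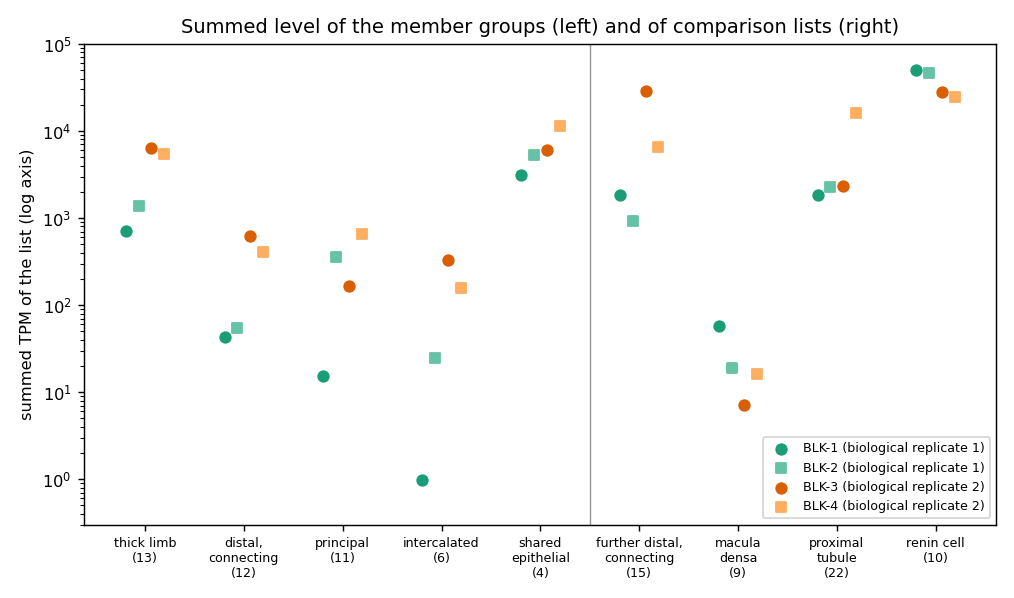
Summed TPM (log axis) of the 5 member groups, left of the vertical line, and of 4 comparison lists, right of it, with 1 point per library and the number of genes in each list in brackets. The thick limb sum was 718 and 1359 TPM in biological replicate 1 and 6388 and 5419 TPM in biological replicate 2, while the renin cell sum ran the other way.

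Among the 42 segment members, those of the thick ascending limb held 75.8% to 92.4% of the summed TPM in each library. This share depends on which genes were listed. A further list of 15 distal convoluted and connecting tubule genes, given below, summed higher than the thick limb members in BLK-1, BLK-3 and BLK-4. Wfdc15b, a secreted protein with a WAP domain, was the most abundant thick limb member in every library, at 375, 759, 2264 and 2438 TPM in BLK-1 to BLK-4, for a level of 1459 ± 1262 TPM (SD, n = 2). Ppp1r1a, an inhibitor of protein phosphatase 1, was at 49.3, 276, 812 and 778 TPM. For both genes the libraries of biological replicate 2 were alike and lay above those of biological replicate 1, which were further apart.

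Umod (chromosome 7 of GRCm38, 119462711 to 119479282), the uromodulin gene and the standard marker of this segment, was at 44.4, 143, 843 and 615 TPM, a level of 411 ± 449 TPM (SD, n = 2). Slc12a1 (chromosome 2, 125152505 to 125230002), which encodes NKCC2, was at 7.40, 51.3, 200 and 136 TPM. On TPM + 1 the means of biological replicate 2 were 7.70 and 5.57 times those of biological replicate 1 for Umod and Slc12a1. Both genes thus kept the same order of libraries, from BLK-1 through BLK-2 and BLK-4 to BLK-3.

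Kcnj1, the potassium channel ROMK that recycles potassium to NKCC2, was at 7.77, 2.18, 71.6 and 68.9 TPM. Cldn10, a claudin of the paracellular sodium path, was at 128, 19.2, 593 and 537 TPM. Egf, the epidermal growth factor precursor, made by the thick limb and the distal convoluted tubule, was at 47.8, 36.0, 191 and 316 TPM. In these 3 genes BLK-1 lay above BLK-2, the reverse of Umod and Slc12a1, and the biological replicates did not overlap.

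Defb1, a beta-defensin of the tubular epithelium, was at 37.9, 60.4, 1183 and 366 TPM, and its mean on TPM + 1 was 15.4 times higher in biological replicate 2. Sostdc1, a secreted antagonist of BMP and Wnt signals, was at 14.6, 0.0770, 58.6 and 146 TPM. Bsnd (barttin), an accessory subunit for chloride transport, was at 0.0592, 1.58, 17.1 and 10.2 TPM. Tmem52b, a membrane protein, was at 4.90, 9.82, 89.6 and 7.24 TPM, so that on TPM it was high in BLK-3 alone and its biological replicates overlapped. The length at which its reads were placed was 627 bases in BLK-2 against 2355 to 2730 bases in the others. The reads behind it numbered 405 and 331 in biological replicate 1 and 13517 and 1552 in biological replicate 2.

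Of the claudins of divalent cation transport, one was seen in a single library and the other in none. Cldn16 and Cldn19 form a channel for magnesium and calcium in the thick limb. Cldn19 was at 0.556, 0.121, 65.4 and 0.206 TPM, so that 98.7% of its summed TPM was in BLK-3, and Cldn16 was at most 0.140 TPM. The effective length of Cldn19, that is the length at which the authors' quantification placed its reads, was 307 bases in BLK-3 against 1479 to 2913 bases in the others, and its 2 GENCODE transcripts are 924 and 4168 bases long. Its TPM in BLK-3 therefore rests on reads placed on a short length, and 1287 reads stood behind it. Among the 46 members, 8 had effective lengths at least 2-fold apart between libraries (17.4%), against 19.7% of the genes above 0 TPM.

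A further list of 15 thick limb genes, which overlap no member, gave a mixed picture. Of its 15 genes 4 were present in every library, 4 were called higher in biological replicate 2 and 1 lower. Its most abundant genes were Atp1b1, the beta subunit of the sodium pump, at 45.6, 166, 435 and 170 TPM, and Ckb, the brain creatine kinase, at 182, 218, 56.4 and 261 TPM, and both are used by many other cells.

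Most genes of a short macula densa list lay under 1 TPM. The macula densa is the plaque of thick limb cells that lies against the renin cells. Of 9 macula densa genes found in the table, 1 was present in every library and 2 in at least 1, against 9.74% and 37.7% of all 32647 genes. A list of 9 genes is too short to tell these counts from those shares. Slc12a2, the cotransporter NKCC1, which many cells make, was the one present throughout, at 29.4, 18.0, 5.76 and 15.8 TPM. Pappa2, a protease that cleaves insulin-like growth factor binding proteins, was at 26.1 TPM in BLK-1 and at 0.152, 1.35 and 0.0873 TPM in the other libraries. The remaining 7 genes, among them Nos1 (neuronal nitric oxide synthase) and Ptgs2 (cyclooxygenase 2), lay under 1 TPM in every library, and Tmem158 was listed at 0 TPM. The summed level of the list was 57.6 and 19.1 TPM in biological replicate 1 and 7.19 and 16.3 TPM in biological replicate 2. Most of that sum was Slc12a2 in every library, so the sum says little about macula densa cells. The median of the list was 0.205 TPM, against 98.7 TPM for the thick limb members.

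In the distal convoluted and connecting tubule, some members were high in both libraries of biological replicate 2, others were present in BLK-3 alone, and 3 were under 1 TPM throughout. The summed TPM of the 12 members was 42.9 and 55.0 in biological replicate 1 and 629 and 412 in biological replicate 2. Slc12a3 (chromosome 8, 94329201 to 94366214), the thiazide-sensitive cotransporter, was at 12.3, 23.7, 70.9 and 42.2 TPM, a level of 37.3 ± 27.3 TPM (SD, n = 2), and its mean on TPM + 1 was 3.03 times higher in biological replicate 2. Calb1, the calcium-binding calbindin-D28k, was at 2.86, 1.86, 133 and 116 TPM, and its mean on TPM + 1 was 37.3 times higher. On TPM, Calb1 therefore separated the biological replicates far more widely than Slc12a3 did. The effective length of Calb1 was 4921 bases in BLK-3 against 913 to 1563 bases in the others. Its similar TPM in BLK-3 and BLK-4 thus stood on 41910 and 8333 reads, with 86 and 156 reads in BLK-1 and BLK-2.

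The kinases that switch on the thiazide-sensitive cotransporter followed the same division. Wnk1 was at 11.6, 14.9, 189 and 86.5 TPM and Wnk4 at 2.19, 0.0107, 108 and 53.3 TPM. Stk39 (SPAK), the kinase that both phosphorylate, was at 2.25, 0.7005, 47.2 and 23.1 TPM. In all 3 the libraries ranked BLK-3, then BLK-4, then those of biological replicate 1.

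The TPM of both WNK genes rested on short effective lengths in biological replicate 2. The effective length of Wnk4 was 330 and 218 bases in BLK-3 and BLK-4 against 1695 and 1739 bases in BLK-1 and BLK-2, and that of Wnk1 was 1316 and 802 bases against 3910 and 3079 bases. GENCODE M21 lists 5 transcripts of Wnk4, from 462 to 4117 bases, and 26 of Wnk1, from 181 to 11330 bases. With reads scaled only to the library total in place of TPM, an alternative added after seeing the data, Wnk1 was no longer called higher in biological replicate 2. Ppp1r1a and Wfdc15b lost their calls too, while Wnk4 kept its call and Tmem52b was newly called higher. The count over the members was 21, against 4.29% of the genes above 0 TPM.

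Of the basolateral potassium channel subunits that pair in this segment, one was present throughout. Kcnj16 was at 11.05, 13.6, 60.2 and 90.2 TPM. Kcnj10 was at 0.145, 0.136, 2.46 and 0.0379 TPM, between 0.0419% and 3.93% of the summed TPM of the pair in any library.

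Calcium and magnesium channels were seen in a single library. Trpv5, the apical calcium channel of this segment, was at 14.6 TPM in BLK-3 and at 0.0289, 0.0220 and 0.00406 TPM in the others. Trpm6, the magnesium channel, was at 1.83 TPM in BLK-3 and at most 0.280 TPM elsewhere. Slc8a1, the sodium-calcium exchanger, and Cldn8, a claudin of the distal nephron, were highest in BLK-3 too, at 0.622 and 0.664 TPM. Pvalb, the parvalbumin gene of the early distal convoluted tubule, was listed at 0 TPM in 3 libraries and at 0.0924 TPM in BLK-4, which stood for 4.0 reads. Of the 12 members of this group, 10 had their highest value in BLK-3.

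S100g and Klk1, which are outside the members, reached far higher levels in the same library. In a further list of 15 distal convoluted and connecting tubule genes, S100g, the intestinal-type calbindin-D9k of the connecting tubule, was at 518 and 306 TPM in biological replicate 1, 18647 TPM in BLK-3 and 2375 TPM in BLK-4. It was thereby the gene of rank 9 in BLK-3, next to Ren1 at rank 8, and ranked 256, 368 and 54 in BLK-1, BLK-2 and BLK-4. Klk1, tissue kallikrein, was at 763, 166, 10028 and 3998 TPM. Both genes were called higher in biological replicate 2, as were 4 of the 15 genes in all, while 1 was called lower. The list sum was 1851 and 922 TPM in biological replicate 1 and 29159 and 6548 TPM in biological replicate 2. Its median was 8.48 and 8.04 TPM in biological replicate 1 and 14.5 and 8.93 TPM in BLK-3 and BLK-4. The higher sum in biological replicate 2 thus lay mostly in S100g and Klk1. S100g and Klk1 exceeded every segment member in BLK-3, where the highest of these, Wfdc15b, was at 2264 TPM.

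**Figure D3:**
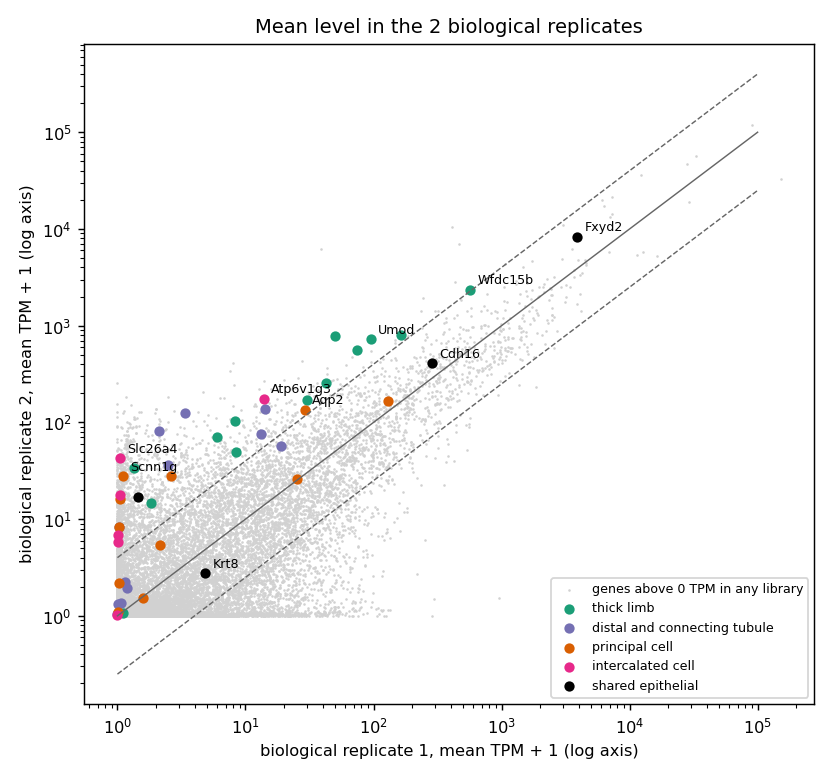
Mean TPM + 1 in biological replicate 1 and biological replicate 2 (both axes logarithmic) for the 46 members, coloured by group, over the 19229 genes above 0 TPM in any library in grey. The solid line marks equal means and the dashed lines 4-fold differences. Members lie above the solid line for 43 of 46 genes, and the shared epithelial genes Fxyd2 and Cdh16 lie between the dashed lines.

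Principal cell transcripts did not follow a single order of libraries. Their summed TPM was 15.4 in BLK-1, 355 in BLK-2, 166 in BLK-3 and 650 in BLK-4, so that technical replicate 2 was the higher of both biological replicates. Most of the gap between BLK-1 and BLK-2 lay in 3 genes. Fxyd4, a regulator of the sodium pump in the collecting duct, was at 7.44, 251, 56.2 and 276 TPM. Aqp2 (chromosome 15, 99579055 to 99584547), the vasopressin-regulated water channel, was at 3.29, 52.9, 2.18 and 268 TPM, a level of 81.5 ± 75.6 TPM (SD, n = 2). Hsd11b2, which inactivates glucocorticoids and so keeps the mineralocorticoid receptor for aldosterone, was at 0.739, 47.6, 7.08 and 42.6 TPM. For these 3 genes BLK-2 and BLK-4 were above BLK-1 and BLK-3, and the means of the biological replicates lay close for Hsd11b2, at 24.2 and 24.9 TPM, and for Fxyd4, at 129 and 166 TPM. The SD over biological replicates, 0.468 TPM for Hsd11b2, leaves out this spread between technical replicates.

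The epithelial sodium channel showed another order. Its subunits Scnn1b and Scnn1g were at most 0.171 TPM in biological replicate 1. In BLK-3 and BLK-4 Scnn1b was at 18.6 and 11.6 TPM and Scnn1g at 43.6 and 9.94 TPM. Scnn1a, the alpha subunit, was at 2.34 TPM in BLK-3 and at most 0.0618 TPM elsewhere, under both partners in every library. Beta and gamma subunits were thus found together, in both libraries of biological replicate 2, and the alpha subunit in 1 of these.

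Tfcp2l1, a transcription factor of the collecting duct, was at 0.979, 2.22, 32.8 and 20.6 TPM and was called higher in biological replicate 2. Avpr2, the vasopressin V2 receptor, was at 14.6 TPM in BLK-4, where 1297 reads stood behind it, and at most 0.169 TPM in the other libraries. It was called higher as well, but on BLK-4 alone. Aqp3, the basolateral water channel, was at 1.82, 0.485, 2.11 and 6.81 TPM. Aqp4, its basolateral companion, was at most 0.199 TPM, and Elf5, a transcription factor of principal cells, lay between 0.425 and 0.736 TPM in every library. The genes of water transport and their receptor therefore had their highest values in BLK-4, apart from Aqp4, and the sodium channel subunits in BLK-3.

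A further list of 15 principal cell genes had a median ratio of -0.02 on the log2 scale. Of them 3 were present in every library, 2 were called higher and 1 lower, and the list sum was 307 and 257 TPM in biological replicate 1 and 156 and 173 TPM in biological replicate 2. Krt19, a keratin, led it at 120, 97.9, 43.0 and 55.6 TPM, followed by Gata3, a transcription factor of the collecting duct that renin cells and mesangium also make, at 49.9, 14.2, 34.6 and 6.93 TPM.

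Intercalated cell transcripts were mostly found in biological replicate 2, with Atp6v1g3 in BLK-2 as an exception. The summed TPM of the 6 members was 0.975 and 25.0 in biological replicate 1 and 330 and 159 in biological replicate 2, a ratio of means of 18.8. That ratio was 5.68 for the thick limb, 10.6 for the distal convoluted and connecting tubule and 2.20 for principal cells. The order of these ratios rested on single libraries: without BLK-2 the ratio was 26.6 for principal cells and 250.5 for intercalated cells, against 8.22 for the thick limb and 12.1 for the distal convoluted and connecting tubule. Without BLK-1 that of intercalated cells was 9.79 and that of principal cells 1.15, and without BLK-3 and BLK-4 the principal cell ratio was 3.51 and 0.895, so that without BLK-4 the sum was lower in biological replicate 2. The thick limb and distal ratios stayed between 4.34 and 12.8 with any library left out. Atp6v1g3 (chromosome 1, 138273738 to 138289462), the G3 subunit of the proton pump, was at 0.809, 24.9, 213 and 138 TPM, a level of 94.2 ± 115 TPM (SD, n = 2). The d2 subunit Atp6v0d2 was at 0.0571, 0.0237, 29.0 and 4.59 TPM. For the B1 subunit, Atp6v1b1 was at 0 and 0.0143 TPM in biological replicate 1 and 3.45 and 8.39 TPM in biological replicate 2. All 3 pump genes were called higher in biological replicate 2 without overlap.

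Each of these subunits has a widespread counterpart from another gene, which allows a comparison within a library. Atp6v1g1 was at 384, 308, 294 and 245 TPM, so that Atp6v1g3 made up 0.211% and 7.47% of the pair in biological replicate 1 and 42.0% and 36.0% in biological replicate 2. Atp6v0d2 made up 0.124% and 0.123% of its pair with Atp6v0d1 in biological replicate 1, 37.9% in BLK-3 and 5.19% in BLK-4. Atp6v1b1 made up at most 0.130% of its pair with Atp6v1b2 in biological replicate 1, and 8.18% and 11.8% in biological replicate 2. In all 3 pairs the widespread subunit was the more abundant in every library. Of 16 widespread pump genes, 14 were present in every library and 3 were called higher in biological replicate 2, with a median ratio of 0.82 on the log2 scale. The most abundant were Atp6v1f at 763, 396, 1439 and 1577 TPM and Atp6v0e at 368, 367, 1700 and 507 TPM.

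**Figure D4:**
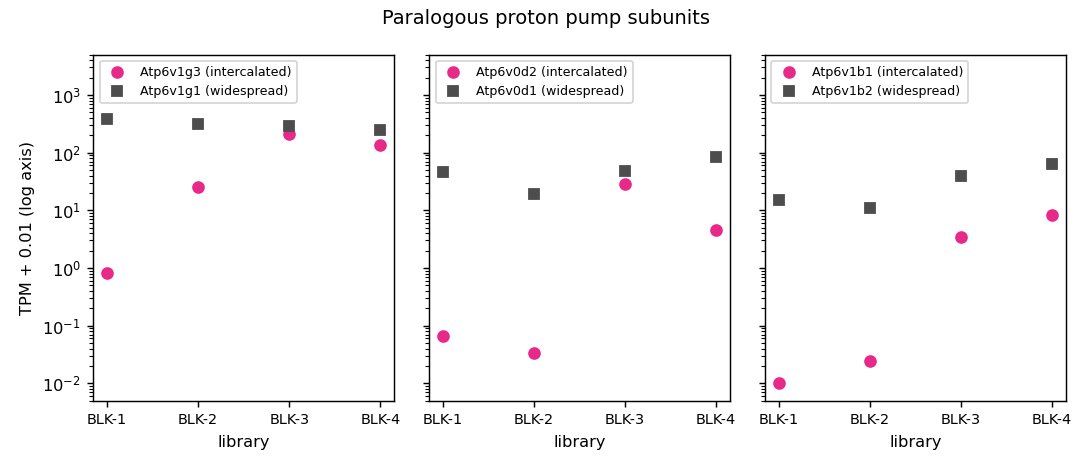
TPM + 0.01 (log axis) of 3 proton pump subunits of intercalated cells (circles) and of their widespread counterparts (squares) in the 4 libraries. The counterparts lie between 11.03 and 384 TPM, while the intercalated subunits lie at 0.0571 TPM or less in biological replicate 1 for Atp6v0d2 and Atp6v1b1 and reach 213 TPM for Atp6v1g3 in BLK-3.

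The anion exchangers that tell the kinds of intercalated cell apart had their highest values in different libraries. Slc26a4 (pendrin; chromosome 12, 31519827 to 31559969), of the base-secreting cells, was at 82.7 TPM in BLK-3 and at 0.0781, 0.0141 and 0.0157 TPM in the others, with 3.0 reads in BLK-4. Slc4a1 (AE1), of the acid-secreting cells and of red blood cells, was at 0.0306, 0, 1.52 and 8.001 TPM. Both exchangers were thus present in BLK-3, and AE1 was highest in BLK-4. Foxi1, the transcription factor that intercalated cells depend on, was listed at 0 TPM in biological replicate 1 and at 0.0208 and 0.00712 TPM in biological replicate 2, on 2.0 and 1.0 reads. A further list of 15 intercalated cell genes had 4 genes present in every library, 4 called higher in biological replicate 2 and 0 lower. Its leading genes were Car15, a carbonic anhydrase, at 1.58, 110, 76.4 and 368 TPM, and Atp6v1c2, the C2 subunit of the pump, at 0.455, 2.53, 65.3 and 295 TPM.

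Of the shared epithelial genes, 2 were abundant in every library and were less than 4-fold apart between the biological replicates. Fxyd2 (chromosome 9, 45399669 to 45410278), the gamma subunit of the sodium pump, was at 2989, 4844, 5666 and 10973 TPM, a level of 6118 ± 3113 TPM (SD, n = 2), above 99.9% of the genes above 0 TPM. Its mean on TPM + 1 was 2.12 times higher in biological replicate 2. Cdh16, the kidney-specific cadherin, was at 152, 420, 319 and 500 TPM, and its mean was 1.43 times higher. Fxyd2 exceeded Fxyd4, its relative of the collecting duct, 402-fold and 19.3-fold in biological replicate 1 and 101-fold and 39.8-fold in biological replicate 2. The proximal tubule makes Fxyd2 and Cdh16 as well, so neither marks a distal segment.

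The simple keratins Krt8 and Krt18, which often form filaments together although each has other partners, were not found together at matching levels. Krt8 was at 0.158, 7.58, 1.82 and 1.69 TPM and Krt18 at 0.681, 0.234, 0.471 and 31.6 TPM. Krt8 took 97.0% of the pair in BLK-2 and 5.09% in BLK-4.

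Regulators of sodium transport outside the members gave calls in both directions. In a list of 12 genes of the WNK and aldosterone pathways, 2 were present in every library, 1 was called higher in biological replicate 2 and 3 lower. The list sum was 126 and 118 TPM in biological replicate 1 and 103 and 25.5 TPM in biological replicate 2, lower in sum, while the median ratio was 0.69 on the log2 scale, higher in biological replicate 2. Its leading genes were Nr3c2, the mineralocorticoid receptor, at 41.5, 36.8, 21.9 and 0.00596 TPM, and Cab39, a scaffold that activates SPAK, at 42.2, 17.3, 1.26 and 8.94 TPM.

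Technical replicates of one biological replicate disagreed for some members, and the sources used here do not say whether they were made from the same pool of cells. A gap was counted where a gene was at 10 TPM or more in one technical replicate and under 0.5 TPM in the other. In biological replicate 1, 1 of the 17 members at 10 TPM or more had a gap, Sostdc1, against 21% of all 5234 genes at that level. In biological replicate 2, 5 of 32 had one, against 30.3% of all 5048 genes at that level: Cldn19, Slc26a4 and Trpv5 were high in BLK-3, and Avpr2 and Krt18 in BLK-4. These shares were not tested against each other. The authors' deposited mean leaves out BLK-1, and for Umod it was 534 TPM, for Aqp2 108 TPM and for Slc26a4 27.6 TPM.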

How the data were processed

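RNA was amplified with SMARTer chemistry from a small pool of sorted cells, and libraries were made with Nextera XT, which does not mark strand. The authors trimmed reads with Trimmomatic 0.36, used Salmon 0.7.2 for quantification against GRCm38 transcripts, and summed to genes in Tximport 1.2.0 (lengthScaledTPM). The sources used here name no Ensembl release. Deposited by the authors were TPM, a mean TPM over 3 libraries, estimated counts (TPM scaled by gene length and library total, so not whole reads) and effective lengths in bases. Reads behind a value were recovered as TPM times effective length, scaled to the library's total of estimated counts. Without molecular identifiers these are not molecules, so no counting interval is given.

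Levels, segment sums and calls were computed from TPM with Python 3.11.15, pandas 2.3.3 and numpy 2.4.6 and drawn with matplotlib 3.10.9. A member was called different between biological replicates where their libraries did not overlap and their means of TPM + 1 were at least 4-fold apart. The rule was tried on simulated libraries with large set changes and small, even noise. These lacked the gaps seen here between technical replicates, so how often the rule errs in these libraries is not known. Coordinates come from GENCODE M21 (GRCm38). Members with a level of 1 TPM or more are given by library and the others by range. Also given are the leading 1 or 2 genes of each comparison list and the partner pairs. The members and lists were chosen with earlier results of these data known. No test between groups was run, since there is 1 condition, and an outlier rule over the libraries is given below. Alternatives left out each library, rescaled TPM and changed the minimum, the pseudocount and the fold. Avpr2, Scnn1b, Umod and 12 other members overlap another annotated gene, and their reads could be shared. Some genes of one comparison are not reported here.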

Additional observations from a re-analysis of the deposited data

Results flagged for a closer look

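Of 41 quantities examined on log2(TPM + 1) over the 4 libraries (5 group sums and 36 members), 5 had 1 library far from the other 3. Chance flags about 1 in 20 such groups where values are independent, which libraries of the same biological replicate are not. In BLK-3 these were Slc26a4 at 82.7 TPM, Cldn19 at 65.4 TPM and Trpv5 at 14.6 TPM. In BLK-4 they were Krt18 at 31.6 TPM and Avpr2 at 14.6 TPM. These 5 are the same members that had a technical replicate gap in biological replicate 2, so they add no separate result. None of the 5 group sums stood apart.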

How the results depend on the processing

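No paired analysis was possible because there is a single group. With each library left out in turn, the members called higher in biological replicate 2 numbered 23 to 27 and those called lower 0 to 1. With 8-fold in place of 4-fold, 14 were called higher, against 2.19% of the genes above 0 TPM. Rescaled without the 20 highest genes, the summed levels went from 3471 to 6516 TPM for the thick limb, 285 to 543 TPM for the distal convoluted and connecting tubule, 297 to 526 TPM for principal cells and 129 to 249.6 TPM for intercalated cells. For shared epithelial members it went from 6477 to 652 TPM, without Fxyd2, and the median member level went from 17.4 to 34.4 TPM. Technical replicate gaps in biological replicate 1 numbered 2 under that rescaling (20.3% of all genes past the upper limit), 4 at 5 against 1 TPM (31.6%), 0 at 20 against 0.1 TPM (8.76%) and 2 on reads scaled to the library total (18.9%). Those in biological replicate 2 numbered 1 at 20 against 0.1 TPM (15.1%). That scaling of reads was added after seeing the data. Of 251 other values of the 36 named members, 233 moved by less than the SD over biological replicates and 18 by more. With n = 2 that SD is a wide limit, so the count does not show that levels were stable. For Slc26a4 the SD was 29.2 TPM, and a fall from 20.7 to 0.0309 TPM without BLK-3 counted as less. Without BLK-3, falls of Cldn19 from 16.6 to 0.272 TPM and of Trpv5 from 3.67 to 0.0148 TPM counted so too. Under 10 reads stood behind 15 and 18 of the 46 members in BLK-1 and BLK-2 and behind 3 and 9 in BLK-3 and BLK-4, and 3 members, Foxi1, Pvalb and Cldn16, had under 10 in every library. The part of depth in the differences was not tested.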

Other observations

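Transcripts on lists for other kidney cell types were measured too, and their source was not tested. Of 8 thin limb genes, 2 were present in every library, led by Cryab, a small heat shock protein that many cells make, at 490, 320, 244 and 106 TPM in BLK-1 to BLK-4. Of 8 podocyte genes, 1 was present in every library, Synpo (synaptopodin), at 46.2, 17.1, 32.0 and 4.10 TPM. The endothelial list was higher in biological replicate 2 in sum, at 51.6 and 141 TPM against 38.2 and 50.7 TPM. Of the 141 TPM in BLK-4, 126 TPM was Egfl7, and 0 of the 9 genes were called higher in biological replicate 2. The thin limb, podocyte and leukocyte sums overlapped between the biological replicates or were lower. Of 9 endothelial genes, 2 were present in every library, and Egfl7 was at 14.2 and 126 TPM in BLK-1 and BLK-4 and at 0.105 and 0.118 TPM in BLK-2 and BLK-3. Of 8 leukocyte genes, 1 was present in every library, Cd74, the invariant chain of MHC class II, at 10.2, 351, 130 and 255 TPM.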
